A study of Mus musculus with 24 samples.

Results

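The scavenger receptor genes described here are Cd36, Msr1, Marco, Mrc1, Cd163, Stab1, Scarb1, Olr1 and Cd68. They were taken by gene symbol from both deposited count tables and joined by Ensembl gene ID, and they are 9 of the 49022 genes that the tables share. Cd36 was included with its direction after bleomycin and between the reporter fractions already known. Its values for bleomycin in wild-type interstitial macrophages and between the reporter fractions are therefore given as description without a test. So are its values in any other comparison that uses the same libraries. Its adjusted p-values that use alveolar macrophages are printed, but they may not be independent of that choice. Polyadenylated RNA was sequenced in bulk from macrophages sorted out of mouse lungs, in 24 libraries that form 8 groups of 3.

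The interstitial gate held CD11b+ SiglecF- cells (IMs) and the alveolar gate held CD11b- SiglecF+ cells (AMs). Spp1-EGFP knock-in (KI) reporter mice, which carry EGFP as a reporter of Spp1, gave EGFP+ IMs at day 14 and at day 7 after bleomycin and EGFP- IMs at day 7 after bleomycin. Their EGFP+ AMs came from day 7 (PBS), day 14 and day 30 (both bleomycin). Wild-type (WT) C57BL/6J mice gave IMs, with no sort on EGFP, at day 7 after bleomycin and at day 7 after PBS. Bleomycin, given to mice as a model of lung injury and fibrosis, went into the trachea at 3 µg per g body weight, and PBS was given by the same route. The age of the mice and whether animals were pooled are not given in the sources used here. Nothing states that the libraries of a group came from separate mice, so the p-values measure the spread between these libraries, which may be technical.

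Scavenger receptors are surface and endosomal proteins of macrophages that bind modified lipoproteins, microbial surfaces, dying cells and fragments of matrix, and deliver them to lysosomes. Most do so for several unrelated ligands, and the classes differ in structure more than in what they bind. In the lung they are known for the clearance of inhaled particles and oxidized surfactant lipid by alveolar macrophages and for the removal of debris after injury.

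Total counts ran from 13450053 to 17848593 in 21 libraries and up to 24580620 in the PBS AMs. The sorts showed in the RNA. Itgam, which encodes CD11b, averaged between 219 and 380 CPM (the count scaled to a common library total) in the IM groups and between 7.35 and 26.2 CPM in the AM groups. Siglecf averaged between 7.46 and 25.2 CPM in the IM groups and reached 123 to 416 CPM in the AM groups. Spp1 averaged 4119 ± 599 CPM in EGFP+ IMs at day 7, against 520 ± 59.8 CPM in EGFP- IMs (SD, n = 3 each). In the EGFP+ AMs after PBS it averaged 203 ± 9.47 CPM, which is below the EGFP- IMs. Macrophage markers (Adgre1, Csf1r, Fcgr1, Mertk, Lyz2) were above 0 in every group. The day 14 libraries differed more within their groups than the others did. The 2 comparisons with EGFP+ IM replicate 1 of day 14 gave a chi-square of 60.9 and 117 per gene between libraries of one group, and outside day 14 this value stayed between 2.89 and 9.56. The groups are split over the tables: day 14 and day 30 libraries are in one and day 7 libraries in the other, so in comparisons across them the table and the group cannot be told apart.

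**Figure D1:**
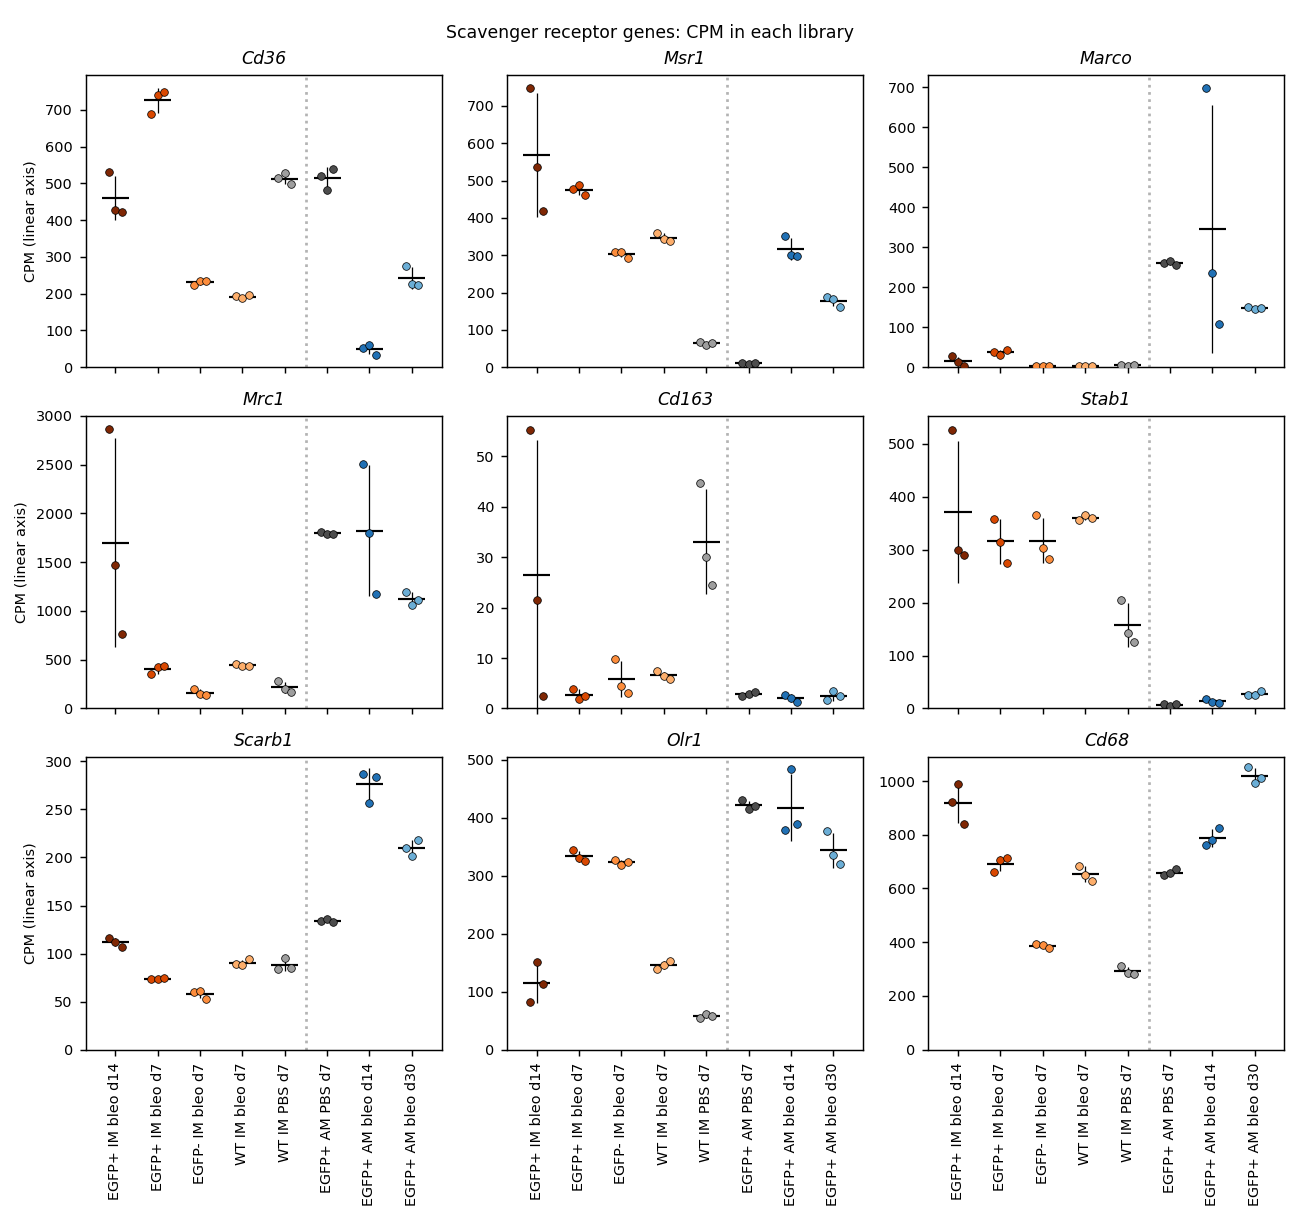
CPM of each of the 9 genes (y axis, linear) in each library (points) of the 8 groups (x axis), with the group mean (horizontal line) and SD (vertical line, n = 3). The dotted line separates IM groups on the left from AM groups on the right. Stab1 is high in every IM group and low in every AM group, Marco the other way round, and Cd36 has its lowest level in AMs at day 14.

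All 9 genes passed the filter on low counts in every comparison. Calls were made with edgeR's quasi-likelihood test where the p adjusted over all genes tested (Benjamini-Hochberg) was under 0.05, and log2 fold changes are given with their standard error. In WT IMs, bleomycin against PBS at day 7, 5 of the 8 genes other than Cd36 rose and 2 fell. Of the 15496 genes tested 70.2% were called, 35.6% as higher and 34.5% as lower. The median log2 fold change was 1.06 over those 8 genes and 0 over all genes. Markers of several other cell types were higher in the PBS libraries. Neutrophil markers summed to 1196 to 1231 CPM after bleomycin, against 5958 to 7247 CPM after PBS, with 8 of 8 lower. Nonclassical monocyte markers summed to 1800 to 1955 CPM, against 4885 to 5405 CPM, also with 8 of 8 lower. Epithelial markers summed to 58.1 to 85.2 CPM, against 4313 to 6407 CPM. Endothelial markers summed to 28.3 to 30.6 CPM, against 77.5 to 82.8 CPM. AM markers summed to 1957 to 2255 CPM after bleomycin, against 598 to 618 CPM after PBS, with 2 higher and 4 lower of the 7 tested. Classical monocyte markers, which share Chil3 with the AM markers, summed to 2817 to 3075 CPM after bleomycin and 1171 to 1229 CPM after PBS. Of these 4 markers 3 were higher and 1 lower. Those of macrophages summed to 13887 to 15120 CPM, against 10109 to 10257 CPM, with 4 higher and 1 lower of 5. None of these markers was at 0 in either group, and their part in the members' changes was not tested. In bulk RNA, fewer cells of a type and less RNA per cell cannot be told apart.

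Among reporter IMs at day 7 after bleomycin, EGFP+ against EGFP-, 5 of the 8 genes other than Cd36 rose and 0 fell, where 34.8% of the 14967 genes tested were called, 17.2% as higher and 17.6% as lower. DESeq2 also called 0 of the 8 as lower, and 0 of them were lower at an unadjusted p under 0.05. The median log2 fold change of the 8 was 0.45, beside -0.02 for all genes. Neutrophil markers summed to 1518 to 2083 CPM in EGFP+ IMs, against 3295 to 4650 CPM in EGFP- IMs, with 8 of 8 lower. Macrophage markers summed to 9730 to 13648 CPM in EGFP+ IMs, against 4474 to 4552 CPM in EGFP- IMs, with 3 of 5 higher and 0 lower. Dendritic cell markers summed to 105 to 125 CPM in EGFP+ IMs, against 230 to 240 CPM in EGFP- IMs, with 4 of 5 lower. Nonclassical monocyte markers summed to 1045 to 1167 CPM in EGFP+ IMs, against 1483 to 1517 CPM in EGFP- IMs, with 4 of 8 lower. AM markers summed to 1621 to 2818 CPM in EGFP+ IMs, against 1633 to 1883 CPM in EGFP- IMs, where Fabp1 was at 0. Of the 7 AM markers tested 4 were higher and 0 lower, with a median log2 fold change of 1.6. The part of these lists in the members' changes was not tested.

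In EGFP+ IMs, day 14 against day 7, 5 of the 8 genes other than Cd36 rose and 1 fell, where 52.2% of genes were called, 25.3% as higher and 26.9% as lower. Without replicate 1 of day 14 these counts were 4 and 2. Over all genes that fit called 3984 as higher and 4567 as lower, against 3781 and 4025 with the replicate. The median of the 8 was 0.55, beside 0 for all genes. Neutrophil markers summed to 64.2 to 107 CPM at day 14, against 1518 to 2083 CPM at day 7, with 8 of 8 lower. Epithelial markers summed to 4.31 to 6.42 CPM, against 34.1 to 151 CPM, with 6 of 6 lower, and dendritic cell markers to 19.0 to 35.4 CPM, against 105 to 125 CPM, with 5 of 5 lower. Macrophage markers summed to 14205 to 48883 CPM at day 14, against 9730 to 13648 CPM at day 7, with 5 of 5 higher. Markers of resident IMs summed to 479 to 1133 CPM, against 305 to 365 CPM, with 4 of 6 higher and a median log2 fold change of 2.36. The part of these lists in the members' changes was not tested.

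In EGFP+ AMs, day 14 after bleomycin against day 7 after PBS, 4 genes rose and 1 fell, where 54.9% of the 14706 genes tested were called, 27.3% as higher and 27.6% as lower. The median of the 9 was 0.44, beside -0.01 for all genes. The gene that fell was Cd36. Of the 8 others 4 rose and 0 fell, with a median of 0.52. Day 30 against PBS gave the same counts, 4 and 1, where 47.9% of genes were called, 24.8% as higher and 23.1% as lower. Cd36 was again the gene that fell. The number called at day 30 depended on the fit, and with the day 30 and PBS libraries alone 4 rose and 4 fell. The share of all genes called with those libraries alone is not given here. Day 30 against day 14, which are in one table, gave 3 higher and 4 lower, where 38.4% were called, 19.6% as higher and 18.7% as lower. Without Cd36 these counts were 2 and 4. Neutrophil markers summed to 59.9 to 116 CPM in AMs after PBS, 33.4 to 63.8 CPM at day 14 and 363 to 449 CPM at day 30. At day 14 Ly6g and Camp were at 0. AM markers summed to 16964 to 18479 CPM after PBS, 13846 to 23888 CPM at day 14 and 14948 to 16642 CPM at day 30. Most of that sum was Chil3 (12481 ± 842 CPM after PBS). Of the 8 AM markers 6 were lower and 1 higher than after PBS at day 14 and likewise at day 30, with a median log2 fold change of -2.34 and -1.59. Resident IM markers summed to 26.3 to 33.6 CPM after PBS, 215 to 354 CPM at day 14 and 115 to 140 CPM at day 30. Epithelial markers summed to 311 to 324 CPM after PBS, 21.4 to 21.7 CPM at day 14 and 102 to 153 CPM at day 30. Fibroblast markers summed to 6.78 to 9.84 CPM after PBS, 2.91 to 6.83 CPM at day 14 and 69.4 to 76.4 CPM at day 30, when 5 of 5 were higher than after PBS. The part of these lists in the members' changes was not tested.

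Between the gates, EGFP+ IMs against EGFP+ AMs at day 14, 3 genes were higher and 3 lower in IMs, where 21% of the 13460 genes tested were called, 10.8% as higher and 10.2% as lower. Without Cd36 the members' counts were 2 and 3. Libraries with the same replicate number deviated together in this comparison, and with the number as a block 4 genes were higher and 3 lower and 3648 of all genes were called, against 2832 without it. Without IM replicate 1 the members' counts were 3 and 2, and 3326 of all genes were called. After PBS, WT IMs against EGFP+ reporter AMs, 3 of the 8 genes other than Cd36 were higher and 5 lower in IMs, where 78.9% of the 15828 genes tested were called, 39.2% as higher and 39.7% as lower. In this last comparison the strain and the EGFP sort differ with the gate and cannot be told apart from it.

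**Figure D2:**
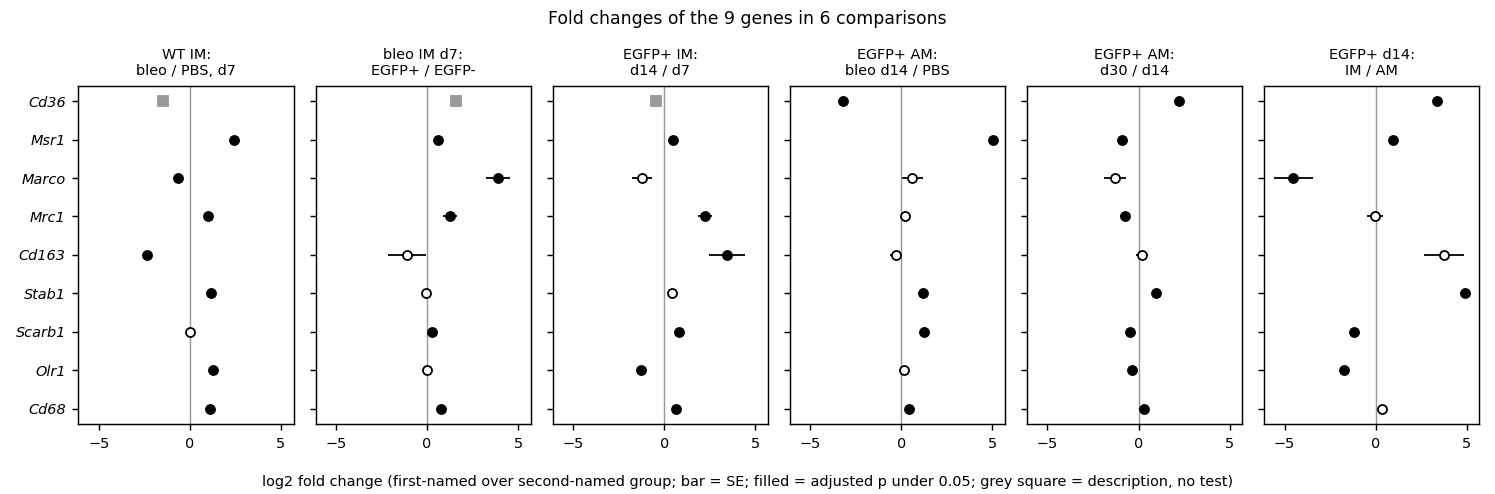
Log2 fold changes (x axis, first-named over second-named group) of the 9 genes (rows) in 6 comparisons (panels). Bars are standard errors, and filled points have an adjusted p under 0.05. Grey squares are values of Cd36 given as description. Msr1 has its largest change in AMs at day 14 against PBS (5.04), where Cd36 has its largest fall (-3.22).

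Msr1, the class A scavenger receptor that binds acetylated and oxidized low-density lipoprotein, had the highest log2 fold change of the 9 after bleomycin in WT IMs and in AMs of day 14 (chr8:39581685-39642673 on the minus strand, GRCm38). In WT IMs it had 360.0, 342.9 and 337.7 CPM after bleomycin, against 67.6, 58.9 and 64.3 CPM after PBS. Every bleomycin library was above every PBS library, and the log2 fold change was 2.40 ± 0.06 (edgeR adjusted p = 1.89e-19). In EGFP+ AMs it had 11.1, 9.68 and 12.2 CPM after PBS, 351.8, 301.8 and 299.2 CPM at day 14, and 187.2, 182.2 and 160.8 CPM at day 30. The 3 AM groups did not overlap. Relative to PBS the log2 fold change was 5.04 ± 0.11 at day 14 (adjusted p = 2.67e-15) and 4.12 ± 0.11 at day 30 (adjusted p = 1.2e-14). Day 30 lay below day 14 by 0.92 ± 0.09 on the log2 scale (log2 fold change -0.92, adjusted p = 9.96e-07).

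Msr1 was also higher in the reporter-positive fraction. At day 7, Msr1 had 477.7, 488.5 and 460.8 CPM in EGFP+ IMs, against 307.6, 309.4 and 293.0 CPM in EGFP- IMs. The log2 fold change was 0.60 ± 0.14 (adjusted p = 0.0062). Msr1 had 747.2, 536.3 and 419.8 CPM in EGFP+ IMs of day 14, which lay on both sides of the day 7 libraries. The increase of day 14 over day 7 was called (log2 fold change 0.46 ± 0.14, adjusted p = 0.0148), but the call was lost when libraries were scaled to their total count (0.26, adjusted p = 0.21), with only those groups in the fit (adjusted p = 0.0503) and without replicate 3 of day 7 (adjusted p = 0.0567). At day 14 Msr1 was higher in EGFP+ IMs than in EGFP+ AMs (log2 fold change 0.94 ± 0.18, adjusted p = 0.00408). Over all 8 groups its means spanned 51.6-fold, the highest in EGFP+ IMs of day 14 (567.8 ± 166 CPM) and the lowest in AMs after PBS (11.01 ± 1.28 CPM).

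Marco is the other class A receptor among the 9, has a collagenous domain, and binds bacteria and inhaled particles. Its highest levels were in AMs (chr1:120474538-120505024, minus strand). It had 262, 266 and 257 CPM in EGFP+ AMs after PBS, 698, 236 and 107 CPM at day 14, and 151, 145 and 149 CPM at day 30. The day 14 libraries spanned 6.51-fold and lay on both sides of the PBS libraries, and the difference was not called (log2 fold change 0.59 ± 0.62, adjusted p = 0.459). Without replicate 1 of day 14 the value was -0.44 (adjusted p = 0.266). Every day 30 library was below every PBS library, but the fit over the 3 AM groups did not call it (-0.70 ± 0.62, adjusted p = 0.4). With the day 30 and PBS libraries alone it was called at -0.71 (adjusted p = 3.17e-10). Day 30 was not called against day 14 either (-1.29 ± 0.63, adjusted p = 0.16), except without replicate 3 of day 14 (-1.72, adjusted p = 0.0318). In WT IMs after PBS Marco had 5.64, 3.56 and 4.91 CPM, which set it below AMs by -5.81 ± 0.10 on the log2 scale (adjusted p = 2.8e-19).

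Within IMs Marco was higher in the reporter-positive fraction. At day 7, Marco had 37.9, 31.2 and 43.7 CPM in EGFP+ IMs, against 2.29, 2.53 and 2.51 CPM in EGFP- IMs. The groups were far apart relative to their spread, with a log2 fold change of 3.89 ± 0.66 (adjusted p = 0.00344), the largest among the members in this comparison. The AM markers tested had a median log2 fold change of 1.6 in the same comparison, and their sums are given above. Marco had 27.1, 13.3 and 2.96 CPM in EGFP+ IMs of day 14, all below the day 7 libraries, and the difference was not called (-1.21 ± 0.55, adjusted p = 0.101). It was called without replicate 1 of day 14 (-1.97, adjusted p = 0.0184) and without replicate 3 (-0.76, adjusted p = 0.0193). At day 14 Marco was lower in EGFP+ IMs than in EGFP+ AMs (-4.52 ± 1.06, adjusted p = 0.0358), a call that was lost with no filter on low counts (adjusted p = 0.11), without any single IM library (adjusted p = 0.106 to 0.134) and without AM replicate 2 (adjusted p = 0.0609). With the replicate number as a block it was called with a smaller error (-4.51 ± 0.20, adjusted p = 2.44e-07). In WT IMs it had 2.61, 2.76 and 3.86 CPM after bleomycin, against 5.64, 3.56 and 4.91 CPM after PBS. The groups overlapped, and the call (-0.66 ± 0.23, adjusted p = 0.0144) was lost with DESeq2 (adjusted p = 0.0536) and with all 24 libraries in one fit (adjusted p = 0.503). It was also lost without bleomycin replicate 1 or 2 (adjusted p = 0.0665 and 0.0677) and without PBS replicate 1 (adjusted p = 0.0813).

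Cd36, the class B receptor that takes up long-chain fatty acids and oxidized lipoprotein and binds thrombospondin, had 193.1, 187.4 and 195.9 CPM in WT IMs after bleomycin, against 513.7, 528.0 and 498.8 CPM after PBS (chr5:17781690-17888801, minus strand). At day 7, Cd36 had 688.0, 741.8 and 749.8 CPM in EGFP+ IMs, against 222.6, 235.3 and 233.7 CPM in EGFP- IMs. Cd36 was included with these directions known. In WT IMs all bleomycin libraries were below all PBS libraries (log2 fold change -1.46). Among reporter IMs of day 7 all EGFP+ libraries were above all EGFP- libraries (log2 fold change 1.61). Both reporter fractions were above the WT bleomycin IMs of the same day in Cd36. In Spp1 those WT IMs averaged 3451 ± 271 CPM, between the means of the fractions. The strain and the sort both differ between WT and reporter IMs, and their part was not tested. Platelets and endothelium also carry Cd36. Platelet markers summed to 2.93 to 5.04 CPM in WT IMs after bleomycin and 9.42 to 10.8 CPM after PBS, and the endothelial sums are given above. At day 7 endothelial markers summed to 19.2 to 30.95 CPM in EGFP+ IMs, against 33.8 to 42.25 CPM in EGFP- IMs. Platelet markers there summed to 7.75 to 11.2 CPM, against 5.84 to 7.35 CPM. The part of these markers in the values of Cd36 was not tested.

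The AM libraries are other ones, but the reason for including Cd36, its direction after bleomycin, did not name a gate. The adjusted p-values of Cd36 that use AM libraries may therefore not be independent of that choice. EGFP+ AMs had 521.3, 482.7 and 540.1 CPM after PBS, 52.7, 59.2 and 34.5 CPM at day 14, and 276.5, 227.0 and 223.7 CPM at day 30. The day 14 libraries were far below the other AM libraries, and the day 30 libraries lay between without overlap. Relative to PBS the log2 fold change was -3.22 ± 0.16 at day 14 (adjusted p = 2.43e-09) and -0.97 ± 0.14 at day 30 (adjusted p = 9.28e-05). Day 30 exceeded day 14 by 2.25 ± 0.15 (adjusted p = 2.1e-07), within one table. At day 14 EGFP+ IMs had 530.4, 428.8 and 422.2 CPM, a level 3.35 ± 0.20 above EGFP+ AMs on the log2 scale (adjusted p = 1.9e-06). After PBS the gates overlapped in Cd36 (log2 fold change -0.01), and EGFP+ IMs of day 14 were below those of day 7 (-0.44). Both values are description, since they use libraries for which Cd36 was included. Its highest mean was 726.5 ± 33.6 CPM in EGFP+ IMs of day 7 and its lowest 48.8 ± 12.8 CPM in AMs of day 14, a 14.9-fold span.

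**Figure D3:**
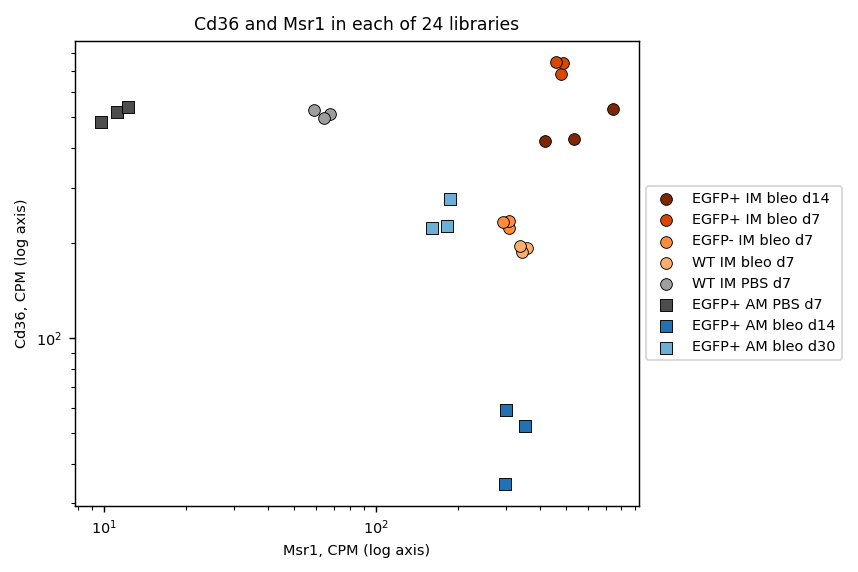
Cd36 (y axis, CPM, log scale) against Msr1 (x axis, CPM, log scale) in each of the 24 libraries, with circles for IMs and squares for AMs. The AM libraries of PBS, day 14 and day 30 stand apart from each other, and EGFP+ IMs of day 7 combine high Cd36 (688.0 to 749.8 CPM) with high Msr1 (460.8 to 488.5 CPM).

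The fall of Cd36 and the increase of Msr1 did not go together in every group, as the plot of Cd36 against Msr1 shows. EGFP- IMs and WT bleomycin IMs had less Cd36 than PBS IMs and more Msr1. EGFP+ IMs of day 7 had more of both than WT PBS IMs, with a log2 fold change of 0.59 ± 0.05 for Cd36, given as description, and 2.99 ± 0.06 for Msr1 (adjusted p = 5.17e-23), where 69.7% of the 16105 genes tested were called, 35.6% as higher and 34.2% as lower. EGFP- IMs against the same PBS libraries gave -1.04 ± 0.05 for Cd36, also as description, and 2.37 ± 0.06 for Msr1 (adjusted p = 1.1e-20), where 58.2% were called, 31.2% as higher and 27% as lower. Of the 8 genes other than Cd36, 6 were higher and 2 lower in EGFP+ IMs, and 4 were higher and 3 lower in EGFP- IMs. The call of Scarb1 as lower in EGFP+ IMs (-0.17 ± 0.06, adjusted p = 0.0171) was lost with no filter on low counts (adjusted p = 0.102) and without EGFP+ or PBS replicate 2 (adjusted p = 0.0578 and 0.168). The call of Marco as lower in EGFP- IMs (-0.82 ± 0.21, adjusted p = 0.00146) was lost with all 24 libraries in one fit (adjusted p = 0.452). Both comparisons share the WT PBS libraries, and in both the strain and the EGFP sort differ with treatment and cannot be told apart from it. Across the 24 libraries the Pearson r of Cd36 with Msr1 was -0.27 on log2(CPM + 1).

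Scarb1, the other class B member, which takes cholesterol esters from high-density lipoprotein, had its highest levels in AMs (chr5:125277087-125341094, minus strand). It had 134.0, 135.8 and 133.1 CPM in EGFP+ AMs after PBS, 287.1, 256.8 and 284.0 CPM at day 14, and 209.8, 201.9 and 218.3 CPM at day 30. The 3 AM groups did not overlap. Relative to PBS the log2 fold change was 1.23 ± 0.08 at day 14 (adjusted p = 8.95e-10) and 0.76 ± 0.08 at day 30 (adjusted p = 3.67e-07), and day 30 lay below day 14 (-0.47 ± 0.08, adjusted p = 0.000141). Among the AM groups Scarb1 was highest at day 14, where Cd36 was lowest.

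In WT IMs Scarb1 had 89.0, 88.0 and 94.1 CPM after bleomycin, against 84.0, 95.5 and 85.3 CPM after PBS. The groups overlapped, and the log2 fold change was -0.01 ± 0.06 (adjusted p = 0.876). At day 7, Scarb1 had 73.1, 73.1 and 74.3 CPM in EGFP+ IMs, against 60.2, 60.8 and 52.9 CPM in EGFP- IMs. This small difference was called (0.29 ± 0.08, adjusted p = 0.0136), and the call was lost without EGFP- replicate 3 (adjusted p = 0.0766). Scarb1 had 116.0, 112.3 and 107.3 CPM in EGFP+ IMs of day 14, above all day 7 libraries (0.83 ± 0.08, adjusted p = 7.78e-06). They were still below EGFP+ AMs of the same day (-1.19 ± 0.13, adjusted p = 0.000103).

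Olr1, a lectin-like receptor for oxidized low-density lipoprotein, had 139.7, 145.9 and 152.9 CPM in WT IMs after bleomycin, against 54.6, 61.4 and 58.3 CPM after PBS (chr6:129485244-129507165, minus strand). The groups were well separated, with a log2 fold change of 1.28 ± 0.06 (adjusted p = 9.14e-15). Reporter IMs of day 7 had more than either, at 343.9, 330.2 and 325.7 CPM in EGFP+ cells and 327.1, 318.7 and 324.1 CPM in EGFP- cells. These fractions overlapped, with a log2 fold change of -0.01 ± 0.20 (adjusted p = 0.99). Both fractions were above the unsorted WT bleomycin IMs of the same day, a difference of strain as well as of sort that was not tested here. Olr1 had 81.4, 151.7 and 114.0 CPM in EGFP+ IMs of day 14, below day 7 (-1.29 ± 0.20, adjusted p = 0.000393).

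In AMs Olr1 differed little by comparison. EGFP+ AMs had 430.1, 415.2 and 419.2 CPM after PBS, 378.5, 483.2 and 389.0 CPM at day 14, and 377.6, 335.4 and 319.2 CPM at day 30. Day 14 overlapped PBS (log2 fold change 0.17 ± 0.09, adjusted p = 0.117), and without replicate 1 of day 14 it was called at 0.23 (adjusted p = 0.0221). Day 30 lay below day 14 (-0.34 ± 0.09, adjusted p = 0.00521), a call lost with all 24 libraries in one fit (adjusted p = 0.0557). Day 30 was not called against PBS (-0.18 ± 0.09, adjusted p = 0.103), but it was with those libraries alone (-0.19, adjusted p = 0.00711), with total counts (adjusted p = 0.0144), with no filter on low counts (adjusted p = 0.0261) and without replicate 1 of day 30 (adjusted p = 0.0491). Olr1 was lower in IMs than in AMs at day 14 (-1.72 ± 0.24, adjusted p = 0.000843) and after PBS (-2.86 ± 0.06, adjusted p = 3.63e-18).

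Cd68, a heavily glycosylated protein of late endosomes and lysosomes that is counted as a class D scavenger receptor, was the most even of the 9 (chr11:69664213-69666153, minus strand). Its group means spanned 3.49-fold. WT IMs had 684.6, 649.2 and 626.9 CPM after bleomycin, against 310.3, 285.3 and 279.8 CPM after PBS, with a log2 fold change of 1.12 ± 0.05 (adjusted p = 1.62e-14). At day 7, Cd68 had 659.9, 706.5 and 711.9 CPM in EGFP+ IMs, against 394.9, 390.9 and 376.5 CPM in EGFP- IMs (0.79 ± 0.10, adjusted p = 0.000162). In both comparisons the groups were far apart. Cd68 had 923.7, 990.0 and 840.3 CPM in EGFP+ IMs of day 14, above day 7 by 0.63 ± 0.10 (adjusted p = 0.000234). In AMs it had 649.6, 656.5 and 671.7 CPM after PBS, 760.8, 780.7 and 823.7 CPM at day 14, and 1051, 993.8 and 1010 CPM at day 30. It rose against PBS at day 14 (0.44 ± 0.07, adjusted p = 4.79e-05) and at day 30 (0.74 ± 0.07, adjusted p = 1.72e-07), and day 30 exceeded day 14 (0.30 ± 0.07, adjusted p = 0.00298). Between the gates it was lower in IMs after PBS (-1.18 ± 0.05, adjusted p = 1.75e-13). At day 14 it was not called (0.33 ± 0.15, adjusted p = 0.14), but it was with all 24 libraries in one fit (0.32, adjusted p = 0.00114).

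Mrc1, the mannose receptor, which takes up glycoproteins and collagen fragments, had 455.6, 439.2 and 438.7 CPM in WT IMs after bleomycin, against 282.3, 197.4 and 167.4 CPM after PBS (chr2:14229392-14332057, plus strand). The groups did not overlap (log2 fold change 1.0 ± 0.22, adjusted p = 0.0134), and the call was lost without PBS replicate 2 (adjusted p = 0.053). EGFP+ IMs of day 7 had 348.7, 420.7 and 437.7 CPM, against 202.0, 152.6 and 133.2 CPM in EGFP- IMs (1.26 ± 0.38, adjusted p = 0.0315). That call was lost with no filter on low counts (adjusted p = 0.092) and without any one of 5 of the 6 libraries compared, the exception being EGFP- replicate 1 (adjusted p = 0.052 to 0.103). Mrc1 had 2864, 1467 and 760.4 CPM in EGFP+ IMs of day 14, all above the day 7 libraries. The log2 fold change of day 14 over day 7 was 2.26 ± 0.39 (adjusted p = 0.00143), and without replicate 1 it was 1.72 ± 0.27 (adjusted p = 0.00155).

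Mrc1 was at its highest in AMs and in EGFP+ IMs of day 14. EGFP+ AMs had 1813, 1786 and 1784 CPM after PBS, 2501, 1801 and 1169 CPM at day 14, and 1195, 1058 and 1113 CPM at day 30. The day 14 libraries overlapped both other groups and the EGFP+ IMs of the same day. Neither day 14 nor day 30 was called against PBS (log2 fold change 0.20 ± 0.22, adjusted p = 0.471, and -0.56 ± 0.22, adjusted p = 0.0714). Day 14 was called without AM replicate 3 (0.44, adjusted p = 0.00524). Day 30 was called with those 2 groups alone (-0.58, adjusted p = 3.5e-09) and with total counts (-0.68, adjusted p = 0.046). Day 30 was called against day 14 (-0.77 ± 0.23, adjusted p = 0.0286), but 8 of 13 alternatives lost that call (adjusted p up to 0.0891). The gates were not called different at day 14, with a wide error (-0.03 ± 0.45, adjusted p = 0.978). With the replicate number as a block the error was smaller and the difference was still not called (-0.125 ± 0.168, adjusted p = 0.63). After PBS WT IMs were below AMs by -3.06 ± 0.22 on the log2 scale (adjusted p = 0.000161).

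Cd163, the receptor for haptoglobin-haemoglobin complexes, was low throughout and above 5 CPM only in libraries of IMs (chr6:124304656-124330527, plus strand). In WT IMs it had 7.35, 6.41 and 5.92 CPM after bleomycin, against 44.7, 30.0 and 24.5 CPM after PBS. The groups did not overlap, with a log2 fold change of -2.38 ± 0.26 (adjusted p = 0.000195). Markers of resident IMs (Folr2, Lyve1, F13a1, Ccl8, C4b, Cbr2) summed to 341 to 376 CPM after bleomycin, against 481 to 626 CPM after PBS, with 3 higher and 2 lower of 6, and their part in the fall was not tested. EGFP+ IMs of day 7 had 3.88, 1.79 and 2.37 CPM, against 9.79, 4.43 and 3.11 CPM in EGFP- IMs, which overlapped (-1.13 ± 1.04, adjusted p = 0.438). Cd163 had 55.3, 21.5 and 2.47 CPM in EGFP+ IMs of day 14. Those 3 libraries spanned 22.4-fold, and the resident IM marker sums of the same libraries were 1133, 530 and 479 CPM.

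The increase of Cd163 at day 14 over day 7 was called (log2 fold change 3.45 ± 0.99, adjusted p = 0.0205) although the groups overlapped. It was lost without replicate 1 of day 14 (2.38, adjusted p = 0.0907), without replicate 2 or 3 of day 7 (adjusted p = 0.061 and 0.0636) and with no filter on low counts (adjusted p = 0.0617). AMs had 2.44, 2.94 and 3.19 CPM after PBS, 2.71, 2.17 and 1.24 CPM at day 14, and 1.58, 3.39 and 2.44 CPM at day 30, with no call between them. At day 14 EGFP+ IMs against EGFP+ AMs gave 3.75 ± 1.11 (adjusted p = 0.072). With the replicate number as a block the difference was called (3.40 ± 0.63, adjusted p = 0.0274). It was also called with DESeq2 (adjusted p = 0.00332), with all 24 libraries in one fit (adjusted p = 0.000792) and without IM replicate 3 (adjusted p = 0.000997). After PBS WT IMs exceeded AMs by 3.53 ± 0.26 (adjusted p = 3.01e-06).

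Stab1, a receptor of resident macrophages and sinusoidal endothelium that takes up Sparc and acetylated lipoprotein, separated the gates in every group (chr14:31139013-31168641, minus strand). WT IMs had 356.6, 365.9 and 359.5 CPM after bleomycin, against 205.2, 142.4 and 125.6 CPM after PBS (log2 fold change 1.15 ± 0.20, adjusted p = 0.00651). EGFP+ IMs of day 7 had 358.2, 314.1 and 274.8 CPM, against 365.4, 303.7 and 282.5 CPM in EGFP- IMs, and the fractions overlapped (-0.05 ± 0.18, adjusted p = 0.856). Stab1 had 527.2, 299.0 and 289.8 CPM in EGFP+ IMs of day 14, with replicate 1 above the day 7 libraries and the others within their range. The difference was not called (0.44 ± 0.18, adjusted p = 0.0677). It was 0.16 without replicate 1 of day 14 (adjusted p = 0.292), and it was called without replicate 2 (0.53, adjusted p = 0.0478). EGFP+ AMs had 8.09, 4.49 and 7.87 CPM after PBS, 17.5, 12.8 and 10.2 CPM at day 14, and 24.98, 24.86 and 33.0 CPM at day 30. The 3 AM groups did not overlap. Against PBS the log2 fold change was 1.17 ± 0.24 at day 14 (adjusted p = 0.000963) and 2.14 ± 0.23 at day 30 (adjusted p = 5.36e-06), and day 30 exceeded day 14 (0.96 ± 0.22, adjusted p = 0.0041).

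Between the gates Stab1 was higher in IMs by 4.88 ± 0.27 on the log2 scale at day 14 (adjusted p = 3.93e-06) and by 4.54 ± 0.34 after PBS (adjusted p = 0.000185). Nt5dc2 overlaps Stab1 on the opposite strand and had 1.43 to 62.0 CPM, and since the strand setting of the counting is not stated, the Stab1 counts could hold reads of it. Cd163 and Stab1 were both higher in PBS IMs than in PBS AMs, but bleomycin moved them in opposite directions in WT IMs.

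Whether bleomycin moved a gene differently in the gates was tested directly, as the effect in EGFP+ AMs (day 14 against PBS) minus that in WT IMs (day 7 against PBS). The effects differed for 4 of the 8 genes other than Cd36, where 39% of the 16687 genes tested were called, 17.5% as higher and 21.6% as lower. Msr1 and Scarb1 had the higher effect in AMs, and Olr1 and Cd68 the lower. For Marco (1.28 ± 0.97, adjusted p = 0.326), Mrc1 (-0.76 ± 0.45, adjusted p = 0.204), Cd163 (2.11 ± 1.08, adjusted p = 0.139) and Stab1 (0.06 ± 0.35, adjusted p = 0.916) the difference was not called. With no filter on low counts Marco (1.16 ± 0.19, adjusted p = 2e-08), Mrc1 (-0.87 ± 0.135, adjusted p = 2.2e-09) and Cd163 (1.99 ± 0.29, adjusted p = 1.28e-10) were called as well. Their estimates were close to those with the filter, and it was the errors that were smaller. The AM libraries of day 14 spanned 107 to 698 CPM in Marco, so these calls depend on how the fit estimates the spread. The day, the strain, the EGFP sort and the table differ with the gate and cannot be told apart from it.

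Promoter sequences of the members that mark a gate, Marco for AMs and Stab1 for IMs, are given with those of Mrc1 and Cd36. They are from RefSeq (GRCm38.p6), each with 250 bases before and 50 after the start, and 7 of the 9 members had an entry (Msr1 and Scarb1 did not). Capitals mark GAGGAA or its reverse complement, a core of the sites of PU.1 (the myeloid factor encoded by Spi1), and in Cd36 the reverse complement of AGGTCA, a half-site of nuclear receptors such as PPARgamma. The windows are chr1:120504975-120505274 on the minus strand for Marco, chr14:31168592-31168891 on the minus strand for Stab1, chr2:14229164-14229463 on the plus strand for Mrc1 and chr5:17835847-17836146 on the minus strand for Cd36. The Cd36 window lies inside the gene's interval in the tables.
Marco: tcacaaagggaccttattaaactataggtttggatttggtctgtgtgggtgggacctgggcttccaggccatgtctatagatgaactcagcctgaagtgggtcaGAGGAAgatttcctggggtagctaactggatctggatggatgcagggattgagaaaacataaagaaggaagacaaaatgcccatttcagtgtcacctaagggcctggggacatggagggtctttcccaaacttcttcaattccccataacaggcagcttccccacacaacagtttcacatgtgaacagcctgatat
Stab1: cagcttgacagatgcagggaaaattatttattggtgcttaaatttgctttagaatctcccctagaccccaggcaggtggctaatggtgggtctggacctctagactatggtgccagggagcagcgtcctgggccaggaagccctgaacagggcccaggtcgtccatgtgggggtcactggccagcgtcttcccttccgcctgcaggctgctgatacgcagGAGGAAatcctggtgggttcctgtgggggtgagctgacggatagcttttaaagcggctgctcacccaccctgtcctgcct
Mrc1: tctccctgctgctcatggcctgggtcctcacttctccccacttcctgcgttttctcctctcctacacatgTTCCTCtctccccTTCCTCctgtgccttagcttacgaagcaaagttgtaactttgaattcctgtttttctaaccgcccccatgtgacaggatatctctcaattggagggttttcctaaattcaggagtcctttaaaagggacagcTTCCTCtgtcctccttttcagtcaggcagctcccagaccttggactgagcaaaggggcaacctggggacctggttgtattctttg
Cd36: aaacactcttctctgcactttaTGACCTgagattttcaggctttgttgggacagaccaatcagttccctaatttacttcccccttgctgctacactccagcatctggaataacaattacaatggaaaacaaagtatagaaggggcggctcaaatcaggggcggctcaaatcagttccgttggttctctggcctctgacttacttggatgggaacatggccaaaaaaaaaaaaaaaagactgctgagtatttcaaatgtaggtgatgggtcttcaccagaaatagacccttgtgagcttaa

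GAGGAA, searched on both strands, was in 5 of the 7 member windows (Marco, Mrc1, Stab1, Olr1 and Cd68), while 28.28% of 32851 RefSeq windows of the same length held it. Mrc1 had 3 matches, and Marco and Stab1 1 each, although they were high in different gates. AGGTCA was in Cd36 and Olr1, and in 16.26% of all windows. The AP-1 motif TGANTCA was in Olr1 and Cd68, with 2 matches in Cd68, and in 7.808% of all windows. CACGTG and TGACNNNGC were in 0 of the 7, and in 7.15% and 12.39% of all windows. The motifs do not overlap each other in these windows. A match describes the letters alone.

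On a scale per transcript length (TPM, from the counts and exon lengths, scaled to a common total), the order of the genes could be compared within a group. Cd68 had the highest TPM of the 9 in all 8 groups, between 42.9% and 66.0% of their sum. Which gene came next differed: Cd36 in WT IMs after PBS (412 TPM, 30.5% of the sum) and in EGFP+ IMs of day 7 (598 TPM, 19.4%), Olr1 in EGFP- IMs (276 TPM), and Mrc1 in WT IMs after bleomycin (201 TPM), in EGFP+ IMs of day 14 (724 TPM) and in all AM groups (451 to 812 TPM). Cd36 took 6.8% of the sum in WT IMs after bleomycin. In AMs it took 11.7% after PBS, 1.04% at day 14 and 5.27% at day 30. The sum itself was 2267 TPM in WT IMs after bleomycin and 1353 TPM after PBS, and in EGFP+ IMs of day 7 it was 3085 TPM, against 1760 TPM in EGFP- IMs. In AMs the sum was 3522 TPM after PBS, 3525 TPM at day 14 and 3287 TPM at day 30.

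**Figure D4:**
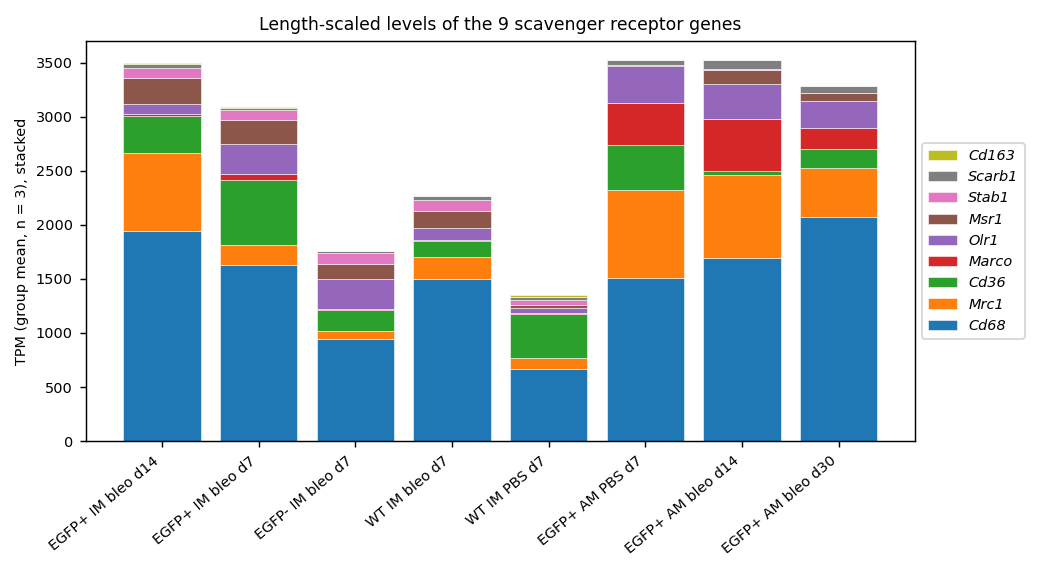
Group mean TPM of the 9 genes, stacked (y axis), in the 8 groups (x axis, n = 3 libraries each). The stack is about as tall in the AM groups (3287 to 3525 TPM) while its makeup differs, with Cd36 lowest at day 14 (36.8 TPM), and in IMs it is lowest after PBS (1353 TPM).

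Over the 24 libraries, Marco, Mrc1 and Scarb1 varied together, with a Pearson r on log2(CPM + 1) of 0.79 between Marco and Mrc1 and 0.78 for each with Scarb1. Cd163 and Olr1 (-0.85) and Marco and Stab1 (-0.84) ran opposite. The libraries of a group share their sort, so these values describe the 8 groups more than 24 independent points. Among 9538 other genes, the one most like Stab1 was Tlr1 (r = 0.986), followed by Ccl7 (0.986) and Tmem119 (0.984). For Marco it was Car4 (0.946), then Sort1 (0.942) and Colec12 (0.941). For Msr1 it was Sash1 (0.985), then Rai14 (0.976) and Mmp14 (0.973). For Mrc1 it was Glul (0.988), then Mt1 (0.982) and Fnta (0.974), and for Cd68 Fblim1 (0.985), then Nucb1 (0.978) and Farsb (0.975). For Cd36 the closest genes were less alike: Tsc22d1 (0.762), Abca1 (0.759) and Tmem43 (0.728). The closest to Cd163 was Vcam1 (0.858), to Scarb1 Tkfc (0.949) and to Olr1 Snx10 (0.942).

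The genes around these receptors were taken as lists of other scavenger receptors, of ligands, partners and signalling, of regulators, and of lipid handling after uptake. In WT IMs, bleomycin against PBS, the median log2 fold change was 0.61 for lipid handling, 0.13 for regulators, -0.18 for ligands and partners and -0.16 for other receptors, beside 0 for all genes tested. Of 15 lipid handling genes 9 rose and 4 fell. Lpl, which frees fatty acids from lipoproteins, averaged 1030 ± 38.5 CPM after bleomycin, against 145 ± 14.9 CPM after PBS (log2 fold change 2.78, edgeR adjusted p = 2.77e-19). Npc1, which exports cholesterol from lysosomes, also rose (1.66, adjusted p = 2.21e-17), and Dgat1, which makes triglyceride, fell (-1.86, adjusted p = 2.06e-18). Of 14 regulators 7 rose and 4 fell. Pparg, a nuclear receptor known to induce Cd36, fell, at 22.9 ± 1.28 CPM after bleomycin, against 62.5 ± 8.31 CPM after PBS (-1.50, adjusted p = 2.65e-12), and its partner Rxra rose (1.28, adjusted p = 9.34e-15).

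Of the 16 ligands and partners 8 rose and 8 fell in the same comparison, among them Hp (-1.39, adjusted p = 7.28e-17), the haptoglobin whose complexes Cd163 takes up, and Sparc (-2.30, adjusted p = 8.47e-14), a ligand of Stab1. Tlr2, which works with Cd36 in the response to bacterial lipoprotein, rose (0.98, adjusted p = 3.35e-14). Of 12 other scavenger receptors 10 were tested, 5 rose and 4 fell. Scarb2 (0.46, adjusted p = 4.48e-08) and Clec7a (0.39, adjusted p = 1.59e-07) rose, and Ager, which lung epithelium expresses strongly, fell (-2.96, adjusted p = 3.97e-14) alongside the epithelial markers given above, whose part was not tested.

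In EGFP+ against EGFP- IMs, 9 of 14 lipid handling genes rose and 2 fell. Lpl averaged 2154 ± 121 CPM in EGFP+ IMs and 608 ± 8.10 CPM in EGFP- IMs (log2 fold change 1.77, adjusted p = 2.4e-05), and the fatty acid binding proteins Fabp5 (1.01, adjusted p = 0.000369) and Fabp4 (1.04, adjusted p = 0.000417) rose as well. Of 14 regulators 4 rose and 3 fell. Pparg rose, at 24.1 ± 4.56 CPM in EGFP+ IMs and 10.7 ± 1.33 CPM in EGFP- IMs (1.13, adjusted p = 0.00189). Rxra (0.81, adjusted p = 0.000532) and Bhlhe41 (2.08, adjusted p = 2.55e-05), a repressor known from AMs, also rose. Of 16 ligands and partners 5 rose and 7 fell, with Chid1, a partner that Stab1 sorts to lysosomes, higher (0.81, adjusted p = 0.000375) and Tlr6 (-0.74, adjusted p = 0.000763) and the kinase Fyn (-0.48, adjusted p = 0.00194) lower. Of 9 other scavenger receptors tested 3 rose and 1 fell, with Scarb2 (0.37, adjusted p = 0.00769) and the endocytic receptor Lrp1 (0.66, adjusted p = 0.031) higher. The list medians were 0.48 for lipid handling, -0.15 for regulators, -0.29 for ligands and partners and -0.04 for other receptors, beside -0.02 for all genes.

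In EGFP+ AMs at day 14 against PBS, 5 of 15 lipid handling genes rose and 7 fell. Cidec, a lipid droplet protein, averaged 28.3 ± 6.50 CPM at day 14 and 450 ± 14.5 CPM after PBS (log2 fold change -3.81, adjusted p = 2.86e-13). Abcg1, which exports cholesterol, fell (-1.12, adjusted p = 6.41e-10), and Fabp5 rose (1.61, adjusted p = 6.41e-10). Among 14 regulators 4 rose and 3 fell, with Cebpb lower (-2.33, adjusted p = 2.87e-12) and Mitf higher (0.76, adjusted p = 2.22e-06). Of 16 ligands and partners 8 rose and 3 fell. Apoe, carried on lipoproteins that these receptors bind, averaged 1509 ± 87.2 CPM at day 14 and 164 ± 37.1 CPM after PBS (3.39, adjusted p = 6.43e-10). Of 8 other scavenger receptors tested 3 rose and 1 fell, with Cxcl16, a membrane chemokine that binds oxidized lipoprotein, at 109 ± 9.39 CPM on day 14 and 20.9 ± 2.41 CPM after PBS (2.58, adjusted p = 1.48e-12). The list medians lay between -0.07 for lipid handling and 0.22 for ligands and partners, beside -0.01 for all genes.

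At day 14, EGFP+ IMs against EGFP+ AMs, 3 of 15 lipid handling genes were higher and 4 lower. Abca1, the cholesterol exporter among the genes most like Cd36, averaged 422 ± 62.1 CPM in IMs and 117 ± 24.6 CPM in AMs (log2 fold change 1.97, adjusted p = 2.59e-05), while Cidec (-5.61, adjusted p = 6.85e-07) and Abcg1 (-1.69, adjusted p = 1.33e-05) were lower in IMs. Among regulators Maf was higher in IMs (2.92, adjusted p = 4.03e-05) and Pparg was lower (-2.20, adjusted p = 2.23e-05), in 3 higher and 4 lower of 14. Apoe (3.97, adjusted p = 1.38e-05) and Thbs1, which encodes a thrombospondin that Cd36 binds (3.85, adjusted p = 4.91e-05), were higher in IMs, in 3 higher and 2 lower of 16. Of 7 other scavenger receptors tested Cxcl16 was higher in IMs (1.87, adjusted p = 0.0014) and Scarf2 lower (-1.55, adjusted p = 0.0206). The list medians lay between -0.31 for lipid handling and 0.12 for ligands and partners, beside 0.01 for all genes.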

How the data were processed

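The deposited values are raw counts of reads by gene, in 2 tables. The tools in the submitters' processing notes are FastQC 0.11.5 and Trimmomatic 0.38 for the reads, HISAT2 2.1.0 for alignment (GRCm38) and featureCounts 1.6.3 for counting. The annotation release and the strand setting are not given in the sources used here. Another 3 count columns match no sample and were not used. The 49022 gene IDs in both tables carry 99.486% or more of every library's total count, which ran from 13450053 to 24580620. CPM was taken over these genes, and TPM from the counts and the exon length of each gene in GENCODE M21, whose coordinates of the 9 genes equal those in both tables.

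The members, gene lists and tests were chosen with earlier results of these data known. All 9 members are named. From each list the 3 genes with the smallest p in a comparison could be named (1 is not reported here), and for each member the 3 genes with the highest Pearson r, among those with a group mean of at least 10 CPM. Each comparison was tested with edgeR 4.0.16 (R 4.3.3, TMM, filterByExpr, robust quasi-likelihood fit, 2-sided) and Benjamini-Hochberg adjustment over all genes. For some of the comparisons the test was also run on simulated data, with the outcome not reported here. IM comparisons of the reporter mice and AM comparisons were fitted over their 3 groups, WT IMs and the gates over 2, and EGFP+ or EGFP- against WT PBS over 4. Alternatives were DESeq2 1.42.0, its size factors, total counts, no filter, other sets of libraries, genes with equal coordinates, each replicate left out and the replicate number as a block. The shared numbers paired the libraries only between the gates at day 14, where deviations of same-numbered libraries correlated in all 3 pairs (0.254, 0.156 and 0.205).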

Additional observations from a re-analysis of the deposited data

Results flagged for a closer look

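The bleomycin effect in EGFP+ AMs (day 14 against PBS) was set against that in WT IMs (day 7 against PBS) in one edgeR fit over all 24 libraries. The effects of 4 of the 8 genes other than Cd36 differed by this test. Of the 16687 genes tested 39% were called, 17.5% as higher and 21.6% as lower. Msr1 rose more in AMs, by 2.67 ± 0.17 on the log2 scale (adjusted p = 1.13e-12). Scarb1 rose in AMs and was not called in WT IMs, a difference of 1.27 ± 0.10 (adjusted p = 1.42e-10). Olr1 rose in WT IMs and was not called in AMs, a difference of -1.08 ± 0.20 (adjusted p = 0.000168). Cd68 rose less in AMs, by -0.64 ± 0.11 (adjusted p = 1.69e-05). Cd36 was lower after bleomycin in both, by -1.72 more in AMs, which is a description because its value in WT IMs was known when it was chosen. The day, the strain, the EGFP sort and the table differ with the gate and cannot be told apart from it.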

How the results depend on the processing

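Of the 99 pairs of a gene and a comparison, 75 kept their call, or stayed uncalled, under every alternative run. Uncalled values could change sign, as Olr1 did in EGFP+ against EGFP- IMs in 7 of 13 alternatives. Of 1332 alternative values 38 lost a call, 23 gained one and 0 called values changed sign. Counts in this paragraph include Cd36, also where its values are description. In AMs of day 30 against PBS 8 of the 9 genes were called with only those 2 groups, against 5 in the fit over 3 groups, and 7 (4 higher, 3 lower) with total counts. Over all genes 7050 were called in the fit over 3 groups and 7165 with total counts. The number over all genes with only those 2 groups is not given here. For the difference of the bleomycin effects 8 were called with no filter on low counts, against 5 with it, and the number over all genes with no filter is not given here either. Leaving out 1 replicate gave between 7 and 8 calls for bleomycin in WT IMs, 4 and 6 for EGFP+ against EGFP- IMs, 5 and 8 for EGFP+ IMs of day 14 against day 7, 5 and 6 for AMs of day 14 and likewise of day 30 against PBS, 6 and 8 for AMs of day 30 against day 14, 5 and 6 between the gates at day 14, 8 and 8 between the gates after PBS, 8 and 9 for EGFP+ IMs against WT PBS IMs, 8 and 8 for EGFP- IMs against WT PBS IMs, and 5 and 5 for the difference of the bleomycin effects. Without Cd36 the range was 6 to 7 for bleomycin in WT IMs, 3 to 5 for EGFP+ against EGFP- IMs and 4 to 7 for EGFP+ IMs of day 14 against day 7. Over all genes, EGFP+ against EGFP- IMs gave 5206 calls and 3280 without EGFP+ replicate 2, and the gates at day 14 gave 2832 calls, 5906 with all 24 libraries in one fit, and 1840 and 1881 without AM replicate 2 or 3. Total counts moved the median of all genes to -0.35 in the difference of the bleomycin effects, -0.20 in AMs and -0.22 in EGFP+ IMs of day 14, and -0.11 between the gates at day 14. They changed the split over all genes to 2063 higher and 5367 lower for EGFP+ IMs of day 14 against day 7, 2641 and 5570 for AMs of day 14 against PBS, 2800 and 4365 for AMs of day 30 against PBS, 3409 and 2052 for AMs of day 30 against day 14, 1110 and 1785 between the gates at day 14, 4022 and 5322 for EGFP- IMs against WT PBS IMs, and 1878 and 5650 for the difference of the bleomycin effects. With the replicate number as a block, which outside the gates at day 14 is a shared number only, Stab1 was called in EGFP+ IMs of day 14 (0.41, adjusted p = 0.0127) and Mrc1 in AMs of day 30 against PBS (-0.57, adjusted p = 0.0306). The cause of these changes was not tested. With 3 libraries a group, Cd163 in AMs and Marco in most IM groups rest on few CPM and differences there have wide errors.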

Other observations

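The day 14 libraries ranged widely in 3 of the members. In EGFP+ IMs the highest library exceeded the lowest 22.4-fold in Cd163, 9.15-fold in Marco and 3.77-fold in Mrc1. In EGFP+ AMs of that day it did so 6.51-fold in Marco and 2.14-fold in Mrc1. Replicate 1 was the highest library of both gates in Marco and in Mrc1. AM markers summed to 3133 CPM in replicate 1 of the IMs, against 1841 and 1482 CPM in the other two. In the AMs they summed to 23888 CPM in replicate 1, against 13846 and 14728 CPM. The sum of macrophage markers ran the other way in IMs, at 14205 CPM in replicate 1, against 35696 and 48883 CPM. Such a sum can follow 1 marker. In AMs it was 55128 to 60480 CPM at day 30, against 34979 to 45961 CPM at day 14. Yet of the 5 markers 1 was higher at day 30 and 4 were lower. Siglecf, one of the AM markers, was lowest in replicate 1 of the IMs (2.44 CPM, against 9.61 and 10.3 CPM). In the AMs Siglecf was also lowest in replicate 1 (108.8 CPM, against 133.9 and 126.2 CPM). Classical monocyte markers, which share Chil3 with the AM markers, summed to 3183, 1953 and 1751 CPM in the IM libraries. The part of these differences in the members' values was not tested.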
